A study of Mus musculus with 4 samples.

Results

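Cytochrome P450 genes outside the Cyp1 family were followed in whole lungs of mice given Sugen with hypoxia and of normoxic mice. The members were the genes whose GRCm38 symbol begins with Cyp and a number, without Cyp1a1, Cyp1a2, Cyp1b1, Cyp26b1, Cyp2f2, Cyp51 and the symbols with -ps, which left 95 of the 47729 genes counted. One of them, Cyp4x1os, is an antisense RNA gene and the other 94 are protein-coding. P450 enzymes are heme proteins of the endoplasmic reticulum or of mitochondria that insert oxygen into their substrates with electrons passed on by partner proteins, in the endoplasmic reticulum mainly by P450 oxidoreductase. Members of the CYP2 and CYP3 families act mostly on drugs and inhaled chemicals, CYP4 enzymes hydroxylate fatty acids and eicosanoids, and further families make or break down steroids, oxysterols, bile acids, vitamin D and retinoic acid. In the lung, club cells of the conducting airways are the classic site of xenobiotic P450 enzymes.

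The study concerns KCNK3 mutations and the lung under hypoxia, and the libraries used here are all of the genotype given as Control (Rosa), strain BL/6, with titles that begin MSX1. The Sugen-Hypoxic group held 2 libraries, each a pool of 2 males, and the Normoxic group held 2 libraries, replicate 1 from 3 females and replicate 2 from 1 female and 2 males, so that 4 treated and 6 normoxic mice were sampled. Sugen is an inhibitor of VEGF receptors that is combined with hypoxia in rodents to produce pulmonary hypertension. The labels give no age, dose or length of exposure. Pool sex went with treatment, so the effects of sex and treatment cannot be told apart. Gene counts came to 57.3 and 65.3 M (1e6 counts) in the Sugen-Hypoxic libraries and to 67.1 and 58.2 M in the Normoxic libraries. The source label names lung while the extraction text names kidneys. Lung markers summed to 28097 and 25420 CPM (counts per 1e6 gene counts) in Sugen-Hypoxic pools and to 32562 and 32313 CPM in Normoxic pools, and 7 kidney tubule markers summed to at most 0.481 CPM in any library.

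The P450 genes as a whole made up a smaller share of the Sugen-Hypoxic transcriptome. The 95 members summed to 887 and 784 CPM in Sugen-Hypoxic pools, against 1511 and 1468 CPM in Normoxic pools. Cyp4b1, Cyp2b10 and Cyp2s1 together held 64.7 and 61.0% of that sum in Sugen-Hypoxic pools, and 72.4 and 72.4% in Normoxic pools. Of the 95 members, 28 had enough reads to be tested, 25 had at least 1 read but never more than 0.309 CPM in a library, and 42 were at 0 in all 4 libraries. In the fit across 18783 genes, with p-values adjusted over all of them, 10 members were lower and 2 were higher in Sugen-Hypoxic lungs. The background of that test was 11.5% of genes called in either direction, 6.01% lower and 5.51% higher, beside 35.7% of the tested members lower and 7.14% higher. The median log2 fold change was -0.54 over the tested members and -0.00 over all genes tested. It was below 0 in 23 of the 28 tested members and in 50.5% of all genes tested. With library sizes left without TMM factors the split was 15 lower and 1 higher. Over all 18783 genes the calls moved the same way in that fit, to 1584 lower and 765 higher. Among the 10 lower members, Cyp8b1 and Cyp2a4 had enough reads to be tested only through their Normoxic pools. A gene admitted that way can hardly be called anything but lower, so these calls carry no weight. With a filter at a mean of 1 CPM, which leaves both out, Cyp27a1 and Cyp4f15 were newly called lower (edgeR adjusted p = 0.0483 and 0.0470). With these, 10 of 24 members were lower and 2 higher. Of 14900 genes in that fit, 1205 were lower and 1042 higher.

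The promoter sequences of 5 of these members are shown, 4 called lower and 1 called higher. Cyp2a4 is among them only as the near copy of Cyp2a5, since its own call carries no weight. The first sequence, of Cyp4b1, belongs to the most abundant member. Those of Cyp2a5 and Cyp2a4 belong to a near-identical pair, that of Cyp2e1 to the largest fall among members above 1 CPM, and that of Cyp4f39 to a fatty acid hydroxylase that was higher. Each line gives the 250 bases before the RefSeq start site on the strand of the gene (GRCm38.p6), at chr4:115647722-115647971 minus for Cyp4b1, chr7:26835089-26835338 plus for Cyp2a5, chr7:26306942-26307191 plus for Cyp2a4, chr7:140763569-140763818 plus for Cyp2e1 and chr17:32452473-32452722 plus for Cyp4f39. Capitals mark matches on either strand to TATAA, the core of the TATA box, to GCGTG, the core of the element bound by the aryl hydrocarbon receptor, and to ACGTG, the core of the hypoxia response element.
Cyp4b1: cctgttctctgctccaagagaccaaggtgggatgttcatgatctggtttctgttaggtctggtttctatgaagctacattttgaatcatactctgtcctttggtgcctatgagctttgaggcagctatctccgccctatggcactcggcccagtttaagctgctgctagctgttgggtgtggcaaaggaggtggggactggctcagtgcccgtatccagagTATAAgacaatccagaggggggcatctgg
Cyp2a5: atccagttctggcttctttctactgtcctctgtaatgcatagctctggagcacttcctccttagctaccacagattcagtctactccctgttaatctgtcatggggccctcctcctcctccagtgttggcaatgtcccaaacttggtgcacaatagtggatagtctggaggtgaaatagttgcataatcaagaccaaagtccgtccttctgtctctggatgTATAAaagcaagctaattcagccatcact
Cyp2a4: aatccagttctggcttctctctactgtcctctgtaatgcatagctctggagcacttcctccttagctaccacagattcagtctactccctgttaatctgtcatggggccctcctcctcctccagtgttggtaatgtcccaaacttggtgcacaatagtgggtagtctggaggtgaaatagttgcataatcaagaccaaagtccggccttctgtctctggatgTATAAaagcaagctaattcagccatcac
Cyp2e1: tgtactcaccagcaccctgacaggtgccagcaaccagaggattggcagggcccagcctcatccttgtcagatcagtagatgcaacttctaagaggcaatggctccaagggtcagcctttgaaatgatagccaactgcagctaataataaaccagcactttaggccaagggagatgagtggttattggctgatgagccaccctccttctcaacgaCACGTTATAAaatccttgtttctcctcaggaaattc
Cyp4f39: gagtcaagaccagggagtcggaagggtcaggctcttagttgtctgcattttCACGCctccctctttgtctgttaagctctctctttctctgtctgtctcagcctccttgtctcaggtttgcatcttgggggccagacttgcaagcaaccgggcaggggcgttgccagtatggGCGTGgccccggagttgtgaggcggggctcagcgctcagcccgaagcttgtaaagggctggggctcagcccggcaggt

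TATAA began 29 bases before the start site in Cyp4b1 and Cyp2a5 and 28 bases before it in Cyp2a4. In Cyp2e1 the capitals join an ACGTG match on the opposite strand at position -36 to TATAA matches on both strands at -32 and -31, which overlap one another. Cyp4f39 held GCGTG at -199, on the opposite strand, and at -78, and neither of the other motifs. RefSeq promoters were found for 72 of the 95 members, 22 of them tested. The search covered the 250 bases before and 50 after the start. TATAA occurred in 5 of 9 lower members with a promoter, in 6 of the 22 tested members and in 38 of all 72 members. It occurred in 24.9% of all 32851 promoters. Of the 6 tested members with TATAA, 5 were lower, and most of the 72 members were not tested. The 5 include the near-identical Cyp2a5 and Cyp2a4. Cyp2a4 and Cyp8b1, also with TATAA, were tested only through their Normoxic reads. GCGTG occurred in 0 of the 9 lower members, in 9 of the 22 tested and in 13 of the 72, beside 32.4% of all promoters. ACGTG occurred in 2 of the 9 lower members, in 5 of the 22 tested and in 7 of the 72, beside 19.6% of all promoters. The RefSeq start of Cyp11a1 lies 8387 bases and that of Cyp2s1 388 bases from the GENCODE start. Both are among the 9 lower members and held none of the 3 motifs in these windows. The counts describe letters in a window and were given no test.

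Levels between genes were compared per length, as TPM (counts per kilobase of exon, scaled to a sum of 1e6). Cyp4b1 was the most abundant member in Normoxic lungs, while its 2-pool range met that of Cyp2b10 in Sugen-Hypoxic lungs. Cyp4b1 stood at 335 ± 35.4 TPM in Sugen-Hypoxic pools and at 886 ± 17.9 TPM in Normoxic pools (SD, n = 2 each). Cyp2b10 stood at 332 ± 60.4 TPM in Sugen-Hypoxic pools and at 492 ± 4.67 TPM in Normoxic pools (SD, n = 2 each). Behind them came Cyp2s1, with 63.0 ± 1.75 TPM in Sugen-Hypoxic pools and 105 ± 0.796 TPM in Normoxic pools. The order below these differed between the groups. In Sugen-Hypoxic lungs Cyp20a1 followed at 58.9 ± 3.20 TPM, then Cyp4v3 at 49.99 ± 1.58, and then Cyp2d22 at 33.8 ± 3.07, Cyp27a1 at 31.3 ± 3.65 and Cyp4f18 at 28.9 ± 4.07, each of which overlapped the next. In Normoxic lungs Cyp4v3 at 61.2 ± 2.70 TPM and Cyp2d22 at 59.3 ± 2.72 overlapped, and Cyp20a1 at 52.5 ± 2.69, Cyp2a5 at 47.2 ± 5.03, Cyp4f18 at 45.6 ± 3.51 and Cyp27a1 at 44.4 ± 0.829 each overlapped the next.

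**Figure D1:**
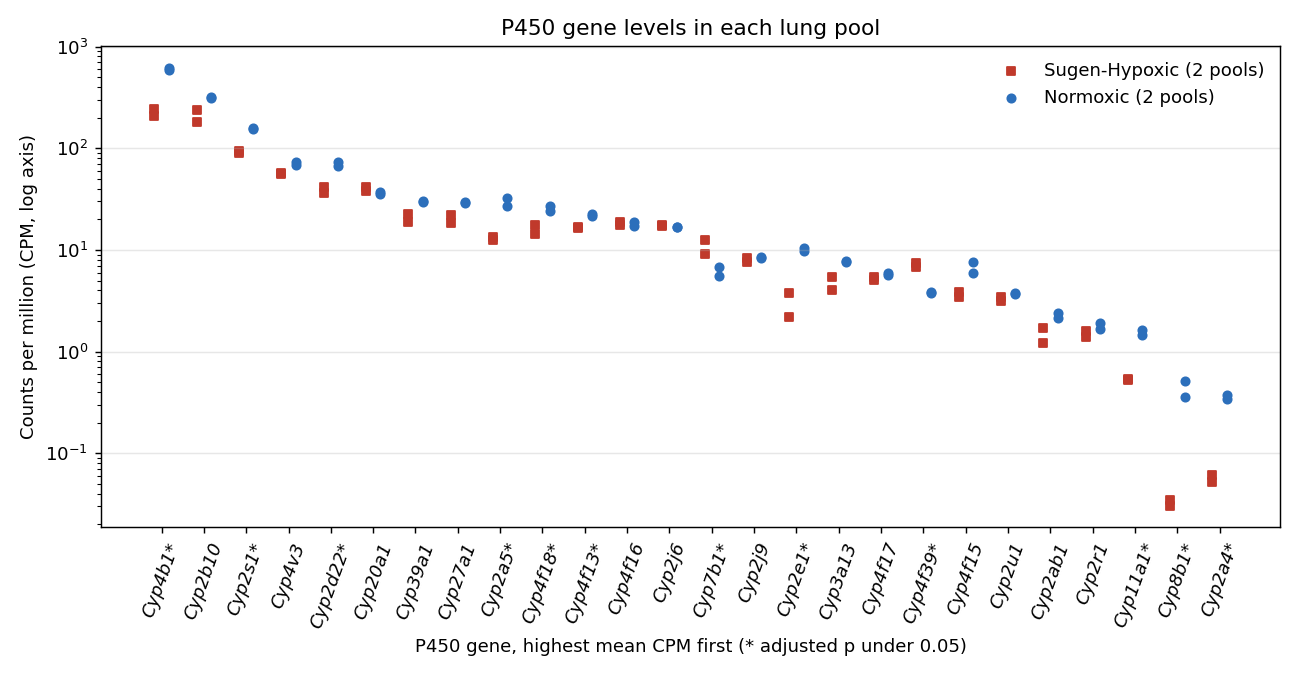
Counts per 1e6 gene counts (CPM, log axis) of the 26 members with a mean of at least 1 CPM or past the threshold, in each Sugen-Hypoxic pool (squares) and each Normoxic pool (circles), with the called members starred. The Sugen-Hypoxic points lie below the Normoxic ones for Cyp4b1, Cyp2s1, Cyp2a5 and Cyp2e1, and above them for Cyp7b1 and Cyp4f39.

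In the plot of levels by pool, the groups separated without overlap for nearly every tested member. All 28 but Cyp4f16 had non-overlapping groups, 23 lower and 4 higher in Sugen-Hypoxic pools. Over all genes tested, 40.0% were lower without overlap and 21.3% were higher without overlap. With 2 pools in a group, separation alone is therefore common in these libraries.

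Among the xenobiotic CYP2 genes (subfamilies 2A, 2B, 2D, 2E, 2S and their like) 5 of the 7 tested members were lower in Sugen-Hypoxic lungs and 0 were higher. Cyp2a4, among the 5, was tested only through its Normoxic reads. The 23 genes of this class summed to 390.4 and 327 CPM in Sugen-Hypoxic pools, against 594 and 576 CPM in Normoxic pools. Cyp2s1 (ENSMUSG00000040703, chromosome 7, 25802475 to 25816913, minus strand) encodes a P450 found mainly outside the liver, in epithelia. It was at 94.8 and 90.3 CPM in Sugen-Hypoxic pools and at 157 and 157 CPM in Normoxic pools. Both pairs were tight, and the log2 fold change of -0.69 ± 0.06 (SE) had an adjusted p of 0.00559 in edgeR's quasi-likelihood test. Cyp2d22 (chromosome 15, 82370527 to 82380260, minus strand) is the mouse gene usually set beside human CYP2D6, a main drug-metabolising enzyme. It was at 42.0 and 36.6 CPM in Sugen-Hypoxic pools and at 73.1 and 67.7 CPM in Normoxic pools. Its level was 1.71-fold lower (log2 fold change -0.77 ± 0.10, adjusted p = 0.0108).

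Cyp2e1 (ENSMUSG00000025479, chromosome 7, 140763739 to 140774987, plus strand) oxidises ethanol and small solvents and is best known in liver. It was at 2.22 and 3.75 CPM in Sugen-Hypoxic pools and at 9.83 and 10.4 CPM in Normoxic pools. This was the largest fall among members with a mean above 1 CPM, 3.23-fold (log2 fold change -1.69 ± 0.25, edgeR adjusted p = 0.0173), and the Sugen-Hypoxic pools were farther apart than the Normoxic ones. Hepatocyte markers were low in every library, with a summed level of 2.91 and 3.01 CPM in Sugen-Hypoxic pools and of 3.87 and 4.59 CPM in Normoxic pools over 7 genes, 1 of which, Serpina1a, was at 0 throughout. None of the 4 tested hepatocyte markers was called.

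Cyp2a5 (ENSMUSG00000005547, chromosome 7, 26835305 to 26843548, plus strand), the coumarin and nicotine oxidase of mouse, was at 12.6 and 13.4 CPM in Sugen-Hypoxic pools and at 32.1 and 27.3 CPM in Normoxic pools. It was 2.18-fold lower (log2 fold change -1.13 ± 0.11, edgeR adjusted p = 0.0065). Cyp2a4 (chromosome 7, 26307169 to 26315088, plus strand), a testosterone hydroxylase, lies in the same gene cluster. It had 3 and 4 reads in Sugen-Hypoxic pools and 23 and 22 reads in Normoxic pools, and only the latter brought it into the test. Scaled by depth, the ratio of Sugen-Hypoxic to Normoxic reads was 0.159 with a 95% counting interval of 0.0605 to 0.355, and the adjusted p was 0.0419. The transcripts of the pair share 38.0% of the 50-base words of Cyp2a4 and 37.0% of those of Cyp2a5, so their separate counts are uncertain where reads could fit both genes. Cyp2a4 amounted to 0.415 and 0.458% of the Cyp2a5 level in Sugen-Hypoxic pools and to 1.07 and 1.38% in Normoxic pools. The upstream sequences printed above match in 245 of 251 aligned columns (97.6%).

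Cyp2b10, the phenobarbital-inducible P450 and the second most abundant member, did not pass edgeR's test with TMM factors. It was at 237 and 181 CPM in Sugen-Hypoxic pools and at 319 and 311 CPM in Normoxic pools, with a log2 fold change of -0.52 ± 0.14 and an adjusted p of 0.0672. It did pass with DESeq2 (adjusted p = 0.00175), and with edgeR without TMM factors (0.0393) or without an expression filter (0.00177). The Sugen-Hypoxic pools differed from each other by more than the Normoxic ones did. Cyp2ab1, a little-studied gene, was at 1.73 and 1.21 CPM in Sugen-Hypoxic pools and at 2.40 and 2.13 CPM in Normoxic pools (adjusted p = 0.247). The other 16 xenobiotic CYP2 genes were not tested, 7 of them at 0 throughout. One of the 16, Cyp2b9, is named after its values were seen. It had 0 reads in both Sugen-Hypoxic pools and 21 reads over both Normoxic pools, which is at least 6.85-fold lower against a floor of 3 counts over the group. Intervals and floors cover counting error only.

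Club cells, the classic site of these enzymes, and the ciliated cells of the airways were tracked with marker lists. Of 8 club cell markers, 3 were lower and 0 higher, with a median log2 fold change of -0.33, and the list summed to 11078 and 9643 CPM in Sugen-Hypoxic pools and to 15009 and 14791 CPM in Normoxic pools. Scgb1a1, the secretoglobin that gives most of that sum, was at 10210.5 and 8457 CPM in Sugen-Hypoxic pools and at 13867 and 13647 CPM in Normoxic pools (log2 fold change -0.49, adjusted p = 0.0852). Scgb3a1, a second secretoglobin, varied between pools, with 18.5 and 132 CPM in Sugen-Hypoxic pools and 35.7 and 19.9 CPM in Normoxic pools. Scgb3a2 and Cckar were lower by 0.59 and 0.52 on the log2 scale. All 10 ciliated cell markers tested were lower (median log2 fold change -0.66), and their sum was 353 and 382 CPM in Sugen-Hypoxic pools and 611 and 608 CPM in Normoxic pools. Their 3 largest falls were in the dynein genes Dnah9 and Dnah5 and in Tekt1. Fewer airway cells and less RNA per cell cannot be told apart in bulk lung, and the part these cells have in the P450 values was not tested.

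The fatty acid hydroxylases of the CYP4 family, with Cyp2u1, gave 3 lower and 1 higher of 9 tested members out of 22. The group summed to 368 and 336 CPM in Sugen-Hypoxic pools and to 776 and 751 CPM in Normoxic pools. Cyp4b1 (ENSMUSG00000028713, chromosome 4, 115624725 to 115647723, minus strand), a lung-rich enzyme that hydroxylates fatty acids and activates furan pneumotoxins, gave most of that sum. It was at 243 and 207 CPM in Sugen-Hypoxic pools and at 619 and 595 CPM in Normoxic pools. The difference of 2.57-fold (log2 fold change -1.36 ± 0.10, edgeR adjusted p = 0.00468) was far larger than the gap between pools of a group. Its 10 neighbours in the Cyp4a, Cyp4b and Cyp4x cluster (chromosome 4, 115106323 to 115647723) were not tested. Of the 8 Cyp4a genes, the peroxisome proliferator-induced hydroxylases of liver and kidney, 6 were at 0 in all libraries and none exceeded 0.0894 CPM.

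The 9 Cyp4f genes code for hydroxylases of leukotrienes and long-chain fatty acids, and their tested members did not move in one direction. Cyp4f18 (chromosome 8, 71988482 to 72009626, minus strand), which inactivates leukotriene B4 in mouse neutrophils, was at 14.4 and 17.5 CPM in Sugen-Hypoxic pools and at 24.4 and 26.9 CPM in Normoxic pools. It was 1.54-fold lower (log2 fold change -0.62 ± 0.11, edgeR adjusted p = 0.0258). Of 8 neutrophil markers, 7 were lower and 0 higher, with a median log2 fold change of -1.19 and a sum of 288 and 243 CPM in Sugen-Hypoxic pools and of 503 and 666 CPM in Normoxic pools. The largest falls were in Ngp, Retnlg and Csf3r, and the part of neutrophils in the Cyp4f18 value was not tested.

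The remaining Cyp4f genes lie within 494.68 kb of chromosome 17 (32452723 to 32947402), where 5 of 8 members were tested and the outermost pair moved in opposite directions. Cyp4f39 (ENSMUSG00000061126, 32452723 to 32493320, plus strand), the mouse counterpart of the human skin-barrier hydroxylase CYP4F22, was at 6.80 and 7.45 CPM in Sugen-Hypoxic pools and at 3.77 and 3.83 CPM in Normoxic pools. It was 1.97-fold higher (log2 fold change 0.98 ± 0.14, edgeR adjusted p = 0.0168). Cyp4f13 at the other end (32924688 to 32947402, minus strand) was at 16.5 and 16.7 CPM in Sugen-Hypoxic pools and at 21.6 and 22.5 CPM in Normoxic pools, a small fall of 1.27-fold (log2 fold change -0.34 ± 0.08, adjusted p = 0.0437). Between them, Cyp4f16 and Cyp4f17 had log2 fold changes of 0.07 ± 0.09 and -0.07 ± 0.14 and were not called. Cyp4f15 lay just outside the threshold, at 3.89 and 3.41 CPM in Sugen-Hypoxic pools and at 7.64 and 5.98 CPM in Normoxic pools (log2 fold change -0.83 ± 0.19, adjusted p = 0.0504).

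Cyp4v3 and Cyp2u1 completed the class without a call. Cyp4v3, the counterpart of the human retinal dystrophy gene CYP4V2, was at 55.7 and 57.7 CPM in Sugen-Hypoxic pools and at 73.3 and 68.1 CPM in Normoxic pools (log2 fold change -0.25 ± 0.07, adjusted p = 0.0649). Cyp2u1 was at 3.47 and 3.12 CPM in Sugen-Hypoxic pools and at 3.72 and 3.76 CPM in Normoxic pools (adjusted p = 0.715).

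**Figure D2:**
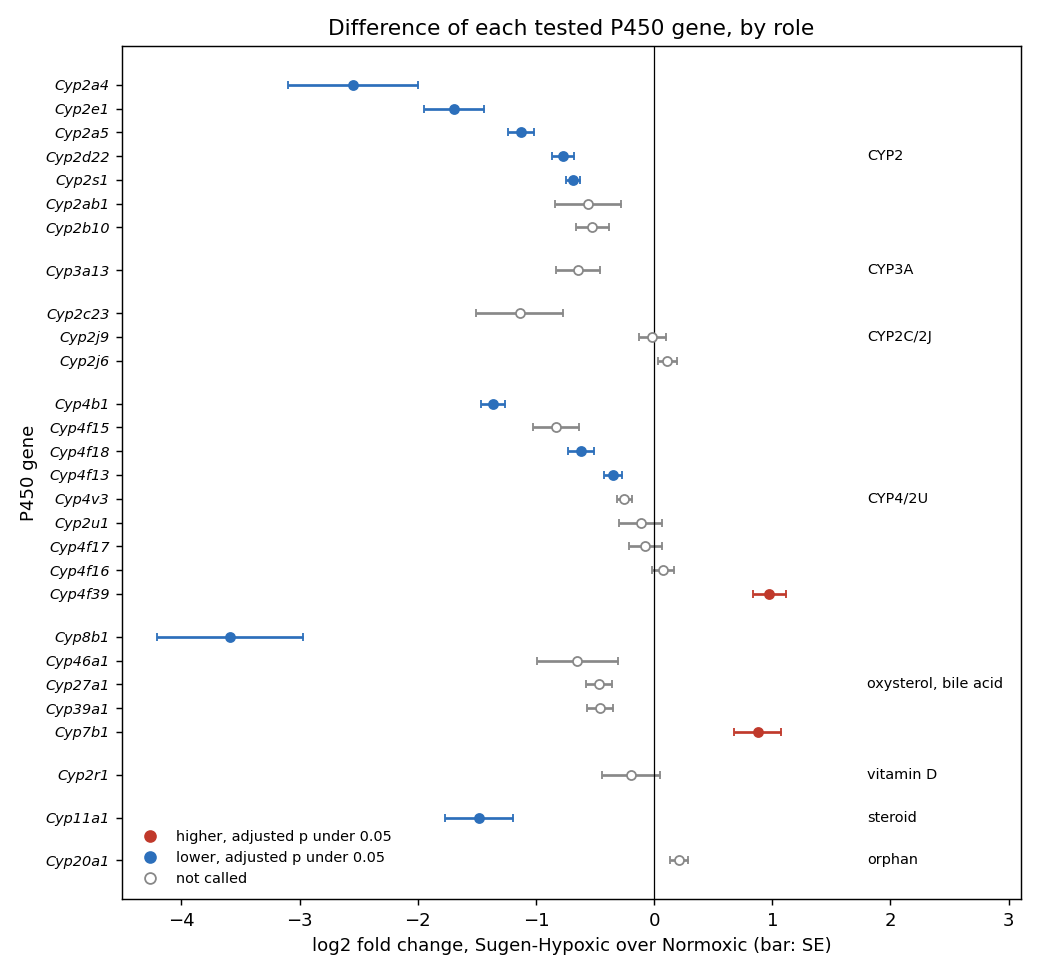
Log2 fold change, Sugen-Hypoxic over Normoxic, of the 28 tested members with its standard error, grouped by role (blue lower, red higher, open not called). The 10 lower members include 5 of the 7 tested members of the xenobiotic CYP2 group, while Cyp4f39 and Cyp7b1 are the 2 higher ones. Cyp2a4 and Cyp8b1, both lower, were tested only through their Normoxic reads.

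The epoxygenase subfamilies, which turn arachidonic acid into vasoactive epoxides in many tissues, showed no called member. Of 23 Cyp2c and Cyp2j genes, 17 were at 0 in all libraries and 3 were tested. The group summed to 25.6 and 25.7 CPM in Sugen-Hypoxic pools and to 26.0 and 25.9 CPM in Normoxic pools. Cyp2j6 was at 17.5 and 17.1 CPM in Sugen-Hypoxic pools and at 16.8 and 16.7 CPM in Normoxic pools (log2 fold change 0.11 ± 0.08, adjusted p = 0.392). Cyp2j9 was at 7.57 and 8.26 CPM in Sugen-Hypoxic pools and at 8.34 and 8.43 CPM in Normoxic pools (log2 fold change -0.01 ± 0.11, adjusted p = 0.946). Their standard errors are small beside the difference of Cyp4b1. The remaining tested gene, Cyp2c23, was below 1 CPM in every library (adjusted p = 0.106), and 12 of 15 Cyp2c genes were at 0. Of 9 Cyp3a genes 7 were at 0, and Cyp3a13, found largely outside the liver, was at 5.39 and 4.01 CPM in Sugen-Hypoxic pools and at 7.66 and 7.76 CPM in Normoxic pools (log2 fold change -0.64 ± 0.19, adjusted p = 0.0833).

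The oxysterol and bile acid P450 genes, 6 in number with 5 tested, included 1 higher and 1 lower member. Cyp7b1 (ENSMUSG00000039519, chromosome 3, 18071950 to 18243338, minus strand), which hydroxylates oxysterols such as those made by Ch25h and Cyp27a1, was at 9.07 and 12.6 CPM in Sugen-Hypoxic pools and at 6.84 and 5.51 CPM in Normoxic pools. It was 1.84-fold higher (log2 fold change 0.88 ± 0.20, edgeR adjusted p = 0.0469), close to the threshold. The call was lost with library sizes unscaled (adjusted p = 0.0560) and with limma-voom (adjusted p = 0.0522). Ch25h, the cholesterol hydroxylase upstream of it, was at 9.56 and 15.1 CPM in Sugen-Hypoxic pools and at 5.82 and 5.51 CPM in Normoxic pools (log2 fold change 1.19 ± 0.22, adjusted p = 0.0291).

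The other sterol enzymes had values on the lower side. Cyp27a1, the mitochondrial sterol hydroxylase, was at 21.999 and 18.5 CPM in Sugen-Hypoxic pools and at 29.8 and 28.7 CPM in Normoxic pools (log2 fold change -0.46 ± 0.11, adjusted p = 0.0526). Cyp39a1, an oxysterol hydroxylase, was at 22.8 and 18.9 CPM in Sugen-Hypoxic pools and at 30.6 and 29.4 CPM in Normoxic pools (log2 fold change -0.46 ± 0.11, adjusted p = 0.0587). Neither passed the threshold, nor did Cyp46a1, the cholesterol hydroxylase of brain, which was near 1 CPM or below (adjusted p = 0.266). Cyp7a1, which starts bile acid synthesis in liver, was at 0 in all libraries. Of 20 tested genes of a wider oxysterol and bile acid list, Ch25h was higher, Star and Acox2 were lower, and the median log2 fold change was 0.05.

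Cyp8b1 (chromosome 9, 121914356 to 121916305, minus strand), the sterol hydroxylase that directs bile acid synthesis to cholic acid, was called lower on very few reads. Only its Normoxic reads brought it into the test. It had 2 and 2 reads in Sugen-Hypoxic pools and 24 and 30 reads in Normoxic pools, a depth-scaled ratio of 0.0757 with a 95% counting interval of 0.0199 to 0.205 (adjusted p = 0.0238). On the opposite strand of the same gene there were 297 and 266 reads in Sugen-Hypoxic pools and 184 and 191 reads in Normoxic pools. These made up 94.2% of the reads of both strands, and no annotated exon of that strand overlaps the exons of Cyp8b1. With unstranded counts the log2 fold change of Cyp8b1 was 0.55 (adjusted p = 0.147), opposite in sign to that of its own strand.

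Steroid and vitamin D enzymes were scarce. Cyp11a1 (chromosome 9, 58006411 to 58027023, plus strand), which cleaves the cholesterol side chain in the first step of steroid synthesis, was the only one of 6 steroid P450 genes tested. It was at 0.523 and 0.536 CPM in Sugen-Hypoxic pools and at 1.46 and 1.65 CPM in Normoxic pools, 2.79-fold lower (log2 fold change -1.48 ± 0.29, edgeR adjusted p = 0.0328). Star, which delivers cholesterol to that enzyme, was at 3.33 and 2.72 CPM in Sugen-Hypoxic pools and at 7.39 and 5.36 CPM in Normoxic pools (log2 fold change -1.01, adjusted p = 0.0487). Markers of steroid-making cells summed to 5.04 and 3.99 CPM in Sugen-Hypoxic pools and to 9.16 and 7.63 CPM in Normoxic pools over 6 genes. Hsd3b1, Hsd3b6 and Mc2r were at 0 in all 4 libraries, and almost the whole sum came from Star and Insl3. Of 18 tested genes of steroid and vitamin D metabolism Star alone was called, with Hsd11b2 and Hsd11b1 next in size and not called (adjusted p = 0.619 and 0.114). Cyp2r1, a vitamin D hydroxylase, was at 1.38 and 1.59 CPM in Sugen-Hypoxic pools and at 1.67 and 1.91 CPM in Normoxic pools (adjusted p = 0.636). Cyp24a1 and the aromatase gene Cyp19a1 were at 0, and the retinoic acid hydroxylases Cyp26a1 and Cyp26c1 did not exceed 0.122 CPM. Cyp20a1, an orphan P450, was at 41.8 and 38.4 CPM in Sugen-Hypoxic pools and at 35.3 and 37.5 CPM in Normoxic pools (log2 fold change 0.21 ± 0.08, adjusted p = 0.139).

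By position, 73 members lay in 9 clusters with gaps under 1 Mb and 22 stood alone. Only 13 of the 73 clustered members were tested, beside 15 of the 22 that stood alone. The chromosome 7 cluster (25802475 to 27158668), with the Cyp2a, Cyp2b, Cyp2s, Cyp2g and Cyp2t genes, held 12 members. Cyp2s1, Cyp2a4 and Cyp2a5 were lower there and Cyp2b10 was not called. The Cyp2c cluster of chromosome 19, with 14 genes, and the Cyp3a cluster of chromosome 5, with 8 genes, had no tested member.

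Of 115 tested genes that work with or around the P450 enzymes, 9 were higher and 8 lower. Over all genes tested, 5.51% were higher and 6.01% lower. Por, the oxidoreductase that supplies electrons to microsomal P450 enzymes, was at 287 and 254 CPM in Sugen-Hypoxic pools and at 405 and 397 CPM in Normoxic pools (log2 fold change -0.50 ± 0.09, edgeR adjusted p = 0.0249). Hmox1, which degrades heme, was at 81.5 and 88.3 CPM in Sugen-Hypoxic pools and at 59.2 and 64.6 CPM in Normoxic pools (log2 fold change 0.52, adjusted p = 0.0116). These were the only 2 calls among 21 electron partners and heme genes, whose median log2 fold change was -0.02. Fdxr, which serves mitochondrial P450 enzymes, had a log2 fold change of -0.38 and an adjusted p of 0.106.

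Of 33 tested nuclear receptors and other regulators of P450 genes, 3 were higher and 4 lower, with a median of -0.02. The aryl hydrocarbon receptor gene Ahr fell by 0.41 on the log2 scale (adjusted p = 0.0179). The clock-output factor Hlf was at 32.2 and 20.2 CPM in Sugen-Hypoxic pools and at 54.2 and 63.7 CPM in Normoxic pools (adjusted p = 0.0364). Dbp, a factor of the same family, had a log2 fold change of -1.17 but differed between the Sugen-Hypoxic pools, at 72.3 and 23.1 CPM, against 93.7 and 132 CPM in Normoxic pools (adjusted p = 0.193). Stat5b was also lower, and Ppard, Cebpb and Nfe2l2 were higher.

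Eicosanoid enzymes, which act on the same lipid substrates as CYP4 and CYP2J enzymes, gave 4 higher and 1 lower of 25 tested genes (median -0.05). Ptgs2, the inducible cyclooxygenase, was at 65.9 and 65.4 CPM in Sugen-Hypoxic pools and at 28.1 and 40.5 CPM in Normoxic pools (log2 fold change 1.01, edgeR adjusted p = 0.0205). Hpgd, which inactivates prostaglandins, was at 248 and 197 CPM in Sugen-Hypoxic pools and at 540.1 and 511 CPM in Normoxic pools (log2 fold change -1.17 ± 0.13, adjusted p = 0.0085). Ptgs1, Hpgds and Ltc4s were the other higher genes, with log2 fold changes of 0.75, 0.81 and 0.95. The P450-fold synthases of prostacyclin and thromboxane and the epoxide hydrolases were not called. Ptgis was at 121 and 91.3 CPM in Sugen-Hypoxic pools and at 111 and 125 CPM in Normoxic pools (adjusted p = 0.757). Tbxas1 was at 16.2 and 25.7 CPM in Sugen-Hypoxic pools and at 14.5 and 13.4 CPM in Normoxic pools (adjusted p = 0.104). Ephx1 and Ephx2 had log2 fold changes of 0.33 and -0.21 (adjusted p = 0.226 and 0.509).

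**Figure D3:**
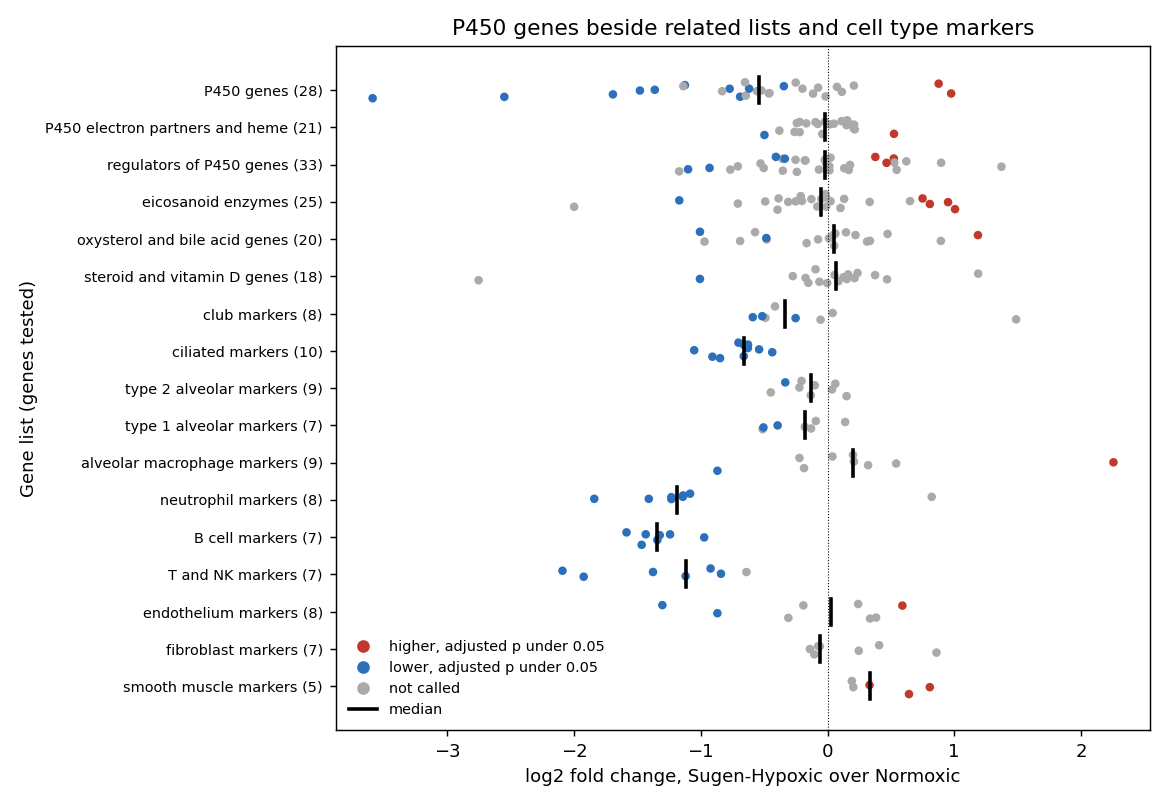
Log2 fold change, Sugen-Hypoxic over Normoxic, of each tested gene (points, coloured by call) in the P450 set, 5 related lists and 11 lists of cell type markers, with the median of each list as a bar. The P450 median of -0.54 lies below the medians of the 5 related lists, and the ciliated, neutrophil, B cell and T and NK lists have medians of -0.66, -1.19, -1.34 and -1.12.

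Markers of other lung cell types moved to differing extents beside the P450 genes. Of type 2 alveolar markers 1 of 9 was lower, and of type 1 alveolar markers 2 of 7 were lower. All 7 B cell markers and 6 of 7 T and NK markers were lower. Of 5 smooth muscle markers 3 were higher, among them Tagln and Acta2, and 0 of 7 fibroblast and 0 of 6 fat cell markers were called. Endothelial markers had 1 higher and 2 lower of 8, and 1 of 5 cardiac muscle markers was lower. Alveolar macrophage markers had 1 higher and 1 lower of 9, and their sum of 1829 and 4726 CPM in Sugen-Hypoxic pools, against 1072 and 968 CPM in Normoxic pools, was carried by Chil3. The part of these cell types in the P450 values was not tested.

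The calls depended on which libraries and terms were in the fit. Without Normoxic replicate 1, the all-female pool, 0 of the 12 called members stayed past the threshold, with Cyp2a5 at an adjusted p of 0.0830. Without Normoxic replicate 2 only Cyp2a5 did (adjusted p = 0.0481). Each of these fits assumes that the lone Normoxic pool varies like the other group. The fits without Sugen-Hypoxic replicate 1 or 2 take their spread from the Normoxic pair alone. Calls were more numerous in them, among the members and over all genes alike. Calls kept in these fits therefore do not show that the results hold. When the male fraction of the pools was added to the fit, with 1 degree of freedom left for the spread, 0 members were called. The sign of the log2 fold change was the same as with all 4 libraries for each of the 12 in all 5 of these fits. For the fits with 1 library left out this was all but fixed beforehand, since the groups of these members did not overlap. Cyp4b1, for example, lay between -1.50 and -1.24 with 1 library left out and at -1.29 with the covariate. The mixed-sex Normoxic pool lay between the all-female pool and the Sugen-Hypoxic pools for 5 of the 12 called members (Cyp4b1, Cyp2s1, Cyp2d22, Cyp2a5 and Cyp4f39) and for 55.7% of all genes called. Of 4 members known to be higher in male than in female mouse liver, only Cyp7b1 was tested, and it was higher. Of 11 known to be higher in female liver, 5 were at 0 and only Cyp2a4 and Cyp39a1 were tested. Cyp39a1 was not called. Cyp2a4 was called lower, but only its Normoxic reads brought it into the test, so that call carries no weight.

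**Figure D4:**
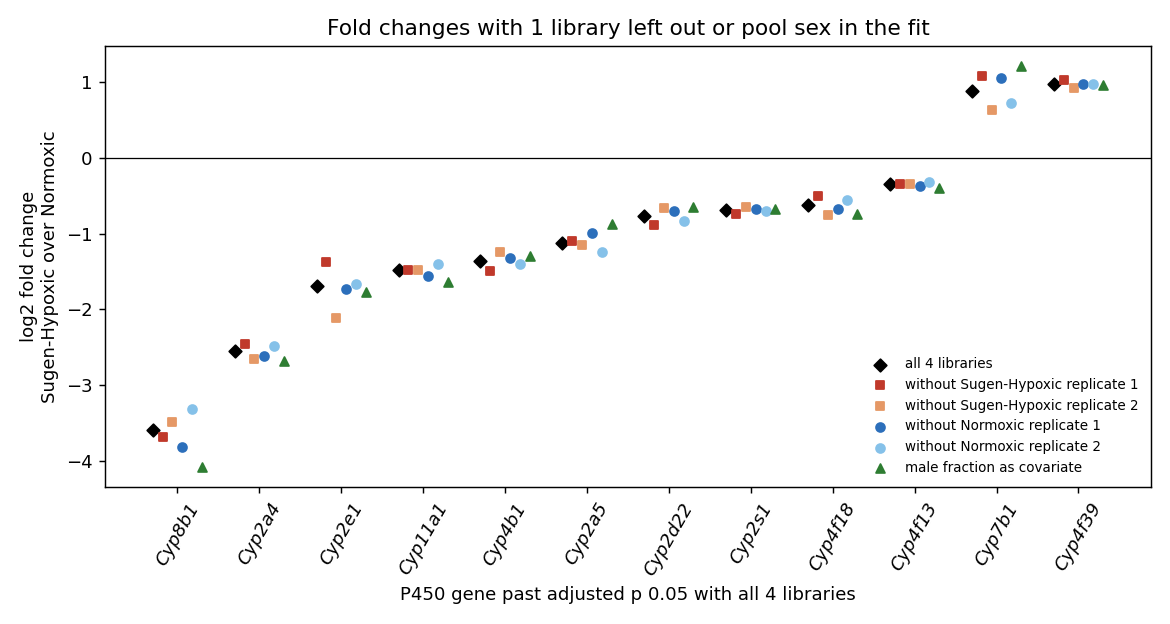
Log2 fold change, Sugen-Hypoxic over Normoxic, of the 12 called members with all 4 libraries (diamonds), with 1 library left out (squares and circles) and with the male fraction of the pools as a covariate (triangles). No symbol crosses 0, which groups without overlap all but fix for the fits with 1 library left out. The widest spread among members above 1 CPM is that of Cyp2e1, at -1.38 without Sugen-Hypoxic replicate 1 and -2.11 without Sugen-Hypoxic replicate 2.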

How the data were processed

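RNA sequencing counts from 4 libraries of pooled mouse lungs were used. The deposited files hold raw counts per gene for unstranded, sense and antisense reads. The submitters' processing notes name STAR 2.5.1b, HTSeq and GRCm38.p4, with annotation and kit not given in the sources used here. The authors' counts for reads antisense to read 1 were used, since these were 20.9 to 24.9 times the sense counts. Summary rows for unmapped (6.45 to 7.55%), multimapping (4.5 to 4.54%), featureless (7.73 to 9.98%) and ambiguous reads (1.1 to 1.13%) stayed out of library sizes and tests. Reads with more than 1 match were not counted, which lowers genes with near-identical copies.

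Symbols and coordinates came from GENCODE mouse release 21 (GRCm38), which matched 47310 of 47729 genes. CPM and TPM were computed from the deposited counts. Genes kept by filterByExpr were tested with edgeR 4.0.16 (R 4.3.3) by the quasi-likelihood test with TMM factors and group alone, two-sided, with Benjamini-Hochberg adjustment over 18783 genes at 0.05, and SE from the F statistic. Alternatives were RLE factors, no factors, other filters, DESeq2 1.42.0, limma-voom (limma 3.58.1), unstranded counts, pool sex and leaving out each library. Replicate numbers follow record order and pair no samples. The labels do not say that pools are separate experiments, so p-values measure only the spread between these pools. At 57.3 to 67.1 M counts per library, 1 CPM stands for at least 57.3 reads.

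Named with values were members past the threshold or with a mean of at least 1 CPM. Of each related list the 3 largest changes above 1 CPM were named, and Por, Ephx1, Ephx2, Ptgis and Tbxas1 always. One regulator that the rule takes is not reported here. Cyp46a1, Cyp2c23, Cyp2b9, the other genes called in a related list, and the genes at 0 are named beyond this rule, after their values were seen. The members and lists were chosen with earlier results of these data known.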

Additional observations from a re-analysis of the deposited data

How the results depend on the processing

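Against 2 higher and 10 lower P450 genes with all 4 libraries, no TMM factors gave 1 and 15, and limma-voom gave 1 higher. No expression filter gave 16 lower, and the male fraction as covariate gave 0 and 0. DESeq2 gave 13 lower, with Cyp2b10, Cyp27a1, Cyp39a1, Cyp3a13 and Cyp4f15 gained. Leaving out 1 library gave 0 to 3 higher and 0 to 16 lower. Over all genes, 1035 were higher and 1128 lower, against 1775 and 1882 without a filter, 1651 higher with DESeq2, 4 and 7 with the male fraction, and 14 to 2623 and 6 to 2442 with 1 library left out. The 5 related lists had 9 genes higher and 8 lower. Alternatives for these lists were chosen after seeing the data. They gave 15 higher and 16 lower without a filter, 18 and 13 with DESeq2, 13 lower without TMM factors, 0 and 0 with the male fraction, and 0 to 27 higher and 0 to 28 lower with 1 library left out. The sign reversed for Cyp8b1 with unstranded counts (0.55), and for 2 genes that were not called, Cyp4f16 with the male fraction (-0.050) and Cyp2j9 with 1 library left out (-0.065 to 0.036, the highest without Sugen-Hypoxic replicate 1). All 12 calls were kept with RLE factors and without a filter, 11 each without TMM factors, with limma-voom and with unstranded counts, and 10 each with DESeq2 and with a filter at a mean of 1 CPM, which gave no value for Cyp8b1 and Cyp2a4. Why counts moved with the library left out was not tested. With 2 pools in a group the spread is poorly known, and Cyp8b1 and Cyp2a4 also rest on few reads, at 4 and 7 in Sugen-Hypoxic pools. No paired analysis was possible because the labels give the groups no shared replicate numbers.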
